A study of Homo sapiens with 9 samples.

Results

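Monocyte and macrophage marker genes were followed in HL-60 clone 15 cells, a subline of an established human promyelocytic leukaemia line that serves as a model for precursors of eosinophils. Of 9 listed markers, 6 had a named probe set and were analysed, out of 14778 genes with one: CD86, CD68, CSF1R, VCAN, KLF4 and CX3CR1. FCGR1A (a high-affinity IgG receptor), MS4A7 (a macrophage membrane protein) and LILRB4 (an inhibitory receptor) were not analysed here. All cells carried a lentiviral construct designed to be switched on by 4-hydroxytamoxifen (4-OHT), a tamoxifen metabolite that binds the oestrogen receptor. One population carried RhoH, a haematopoietic small GTPase, and was profiled without 4-OHT (uninduced RhoH, 3 arrays) and with 100 nM 4-OHT (induced RhoH, 3 arrays). The other carried GFP, a fluorescent control protein, and was profiled with 100 nM 4-OHT (3 arrays). The design asks which genes RhoH changes. No GFP cells without 4-OHT were analysed here, so with induction the drug and RhoH cannot be told apart. Against GFP, the construct and the transduced population cannot be told apart, nor, for uninduced RhoH, the drug. The replicates are described as biological, without saying how the cultures were separated.

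These markers stand for different parts of monocyte and macrophage biology. CSF1R is the receptor kinase through which the cytokines CSF1 and IL-34 keep the lineage alive and drive its differentiation, and KLF4 is a zinc finger transcription factor that favours monocytic fate. CD68 is a heavily glycosylated protein of lysosomal membranes, and CD86 is a surface ligand that gives T cells a second signal through CD28 or restrains them through CTLA4. CX3CR1 is the receptor of the chemokine fractalkine, and VCAN encodes versican, a large extracellular proteoglycan that classical monocytes make in quantity. HL-60 cells are promyelocytes and can be driven towards granulocytes or towards macrophages.

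CD86 and CD68 were the 2 markers called in these data, and their promoters are shown for that reason. The RefSeq promoter table (GRCh38.p14) lists 2 transcription starts for CD86 and 1 for CD68. The 250 bases before each start are printed 5′ to 3′ on the gene's strand, with capitals marking every match to 6 short motifs searched on both strands.
CD86 start 1, chr3:122055112-122055361, plus strand: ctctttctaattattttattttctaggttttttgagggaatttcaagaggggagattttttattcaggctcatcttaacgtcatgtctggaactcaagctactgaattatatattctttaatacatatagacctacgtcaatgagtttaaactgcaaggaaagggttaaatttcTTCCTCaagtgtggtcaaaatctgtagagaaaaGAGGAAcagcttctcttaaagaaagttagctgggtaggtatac
CD86 start 2, chr3:122077534-122077783, plus strand: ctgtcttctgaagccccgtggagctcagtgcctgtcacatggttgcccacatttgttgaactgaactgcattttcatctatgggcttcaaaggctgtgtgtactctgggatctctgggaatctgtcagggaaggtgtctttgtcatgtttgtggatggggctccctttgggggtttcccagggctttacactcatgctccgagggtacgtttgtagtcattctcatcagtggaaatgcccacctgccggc
CD68 start 1, chr17:7579388-7579637, plus strand: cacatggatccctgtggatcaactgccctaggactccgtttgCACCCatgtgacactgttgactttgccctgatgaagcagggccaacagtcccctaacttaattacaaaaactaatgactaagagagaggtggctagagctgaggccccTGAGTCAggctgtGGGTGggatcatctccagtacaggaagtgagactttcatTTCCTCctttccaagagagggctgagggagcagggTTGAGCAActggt
The motifs were the PU.1 core GAGGAA, the AP-1 site TGANTCA, the C/EBP site TTGCNNAA, the GAS element TTCNNNGAA, the KLF box CACCC and the palindromic consensus oestrogen response element. The first CD86 start had 2 PU.1 cores, at positions -76 to -71 and -43 to -38 relative to the start. The second had no match to any of the 6. The CD68 start had a PU.1 core at -48 to -43, an AP-1 site at -100 to -94, a C/EBP site at -13 to -6 and 2 KLF boxes, and no 2 of these matches overlapped. Over all 35116 promoters of the table, the same window held a PU.1 core in 23.6%, an AP-1 site in 6.57%, a C/EBP site in 9.05%, a GAS element in 6.57%, a KLF box in 54.7% and an oestrogen response element in 0.0399%. Among the other markers, a PU.1 core was found before the second of 2 CSF1R starts (2 cores), before the KLF4 start and before the third of 3 CX3CR1 starts, and none before the VCAN start. No oestrogen response element was found before any of the 10 starts of these 6 genes. A match is a run of letters and was not tested as a binding site, and which start these cells use was not measured.

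Expression was read as log2 signal of 1 probe set per gene, normalized by the authors, so that a difference of 1 is a 2-fold difference. A gene was called where limma, a linear model fitted to all 9 arrays and all 14778 genes, gave a Benjamini-Hochberg adjusted p under 0.05. Median log2 signal was 5.43 to 5.55 on the 9 arrays, and within-group correlations across probe sets were 0.974 to 0.996. Both RhoH replicate 1 arrays and induced RhoH replicate 3 stood apart from their groups (array weights 0.267 to 0.334, against 1.25 to 2.61 for the others), so results are also given without the replicate 1 arrays where this moves a call. Induced RhoH replicate 3 was left out only on its own, never together with the replicate 1 arrays. RHOH itself went against its label. Its signal was 5.15, 5.23 and 5.25 on the uninduced arrays, 5.45, 5.60 and 5.73 on the induced arrays, and 5.90, 5.94 and 5.94 on the arrays labelled GFP. No GFP array overlapped with a RhoH array. RHOH was higher in induced than in uninduced RhoH (0.38, limma adjusted p = 0.0451), a call lost in 12 of 19 alternatives (0.0776 to 0.192), and the difference between induced RhoH and GFP was -0.33 (SE 0.09, limma adjusted p = 0.0717), which passed with quantile normalization (0.0467) and without induced RhoH replicate 2 (0.0495). RHOH was lower in uninduced RhoH than in GFP cells (-0.72, limma adjusted p = 0.00042), a call that held in all 19 alternatives. Where the probes lie on the transcript was not used here, and directions are given by the arrays' labels throughout.

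CD86 had the widest range of the 6 markers. In the arrays labelled uninduced RhoH its log2 signal was 5.75, 5.75 and 5.30 in replicates 1 to 3. In those labelled induced RhoH it was 7.98, 7.45 and 7.57, and in those labelled GFP 8.19, 8.40 and 8.29. The 3 groups did not overlap on any array, and the uninduced arrays lay far below both groups that received 4-OHT. CD86 was 4.19-fold higher in induced than in uninduced RhoH (log2 fold change 2.07, SE 0.16, limma adjusted p = 0.000108) and 6.45-fold lower in uninduced RhoH than in GFP cells (-2.69, SE 0.16, adjusted p = 3.91e-06). Both calls held in each of 19 alternative analyses, with fold changes of 1.91 to 2.17 and -2.82 to -2.54. By size it ranked 11th of 558 called genes in the first comparison and 21st of 2258 in the other. In bulk RNA, fewer expressing cells and less RNA per cell cannot be told apart.

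Induced RhoH cells did not reach the CD86 level of GFP cells on any array, but this smaller difference missed the threshold. It was -0.62 (95% interval -0.98 to -0.26, limma adjusted p = 0.0622). It passed without induced RhoH replicate 1, the induced array with the highest CD86 signal (-0.78, adjusted p = 0.0206), without uninduced RhoH replicate 3 (0.0464), without both RhoH replicate 1 arrays (0.02), with array weights (-0.74, 0.0133) and with the dimmest genes left out (0.0456).

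Among the other genes of T cell co-stimulation and antigen presentation, 7 of 8 measured did not pass in any comparison. The list held 20. In each comparison 1 gene was called, or 12.5% of those measured. Of all genes, 3.78% were called with induction, 4.49% between induced RhoH and GFP and 15.3% between uninduced RhoH and GFP. CD58, the ligand of the T cell adhesion molecule CD2, was the one called: higher in induced than uninduced RhoH (0.68, limma adjusted p = 0.0231), lower in induced RhoH than GFP (-0.62, adjusted p = 0.0317) and lower in uninduced RhoH than GFP (-1.30, adjusted p = 0.00013). The first 2 of these calls were lost when some single arrays were left out, the first without uninduced RhoH replicate 2, induced RhoH replicate 1 or 2, or GFP replicate 3 (0.0513 to 0.0679), the second without uninduced RhoH replicate 2, induced RhoH replicate 2 or 3, or any 1 GFP array (0.053 to 0.131). With all probe sets tested both were lost (0.0654 and 0.0749), and with only the 6 arrays compared the first (0.115). CD80, the close relative of CD86 that binds the same receptors, had a log2 signal of 4.89 ± 0.08 (SD, n = 3) in uninduced RhoH, 4.93 ± 0.12 in induced RhoH and 4.74 ± 0.11 in GFP cells. Its difference with induction was 0.04, with a 95% interval of -0.18 to 0.25. The T cell receptors of CD86 were measured as well. CD28 was between 4.72 and 4.94 and CTLA4 between 3.21 and 3.35 in the group means, and neither was called in any comparison. CD80, CD28 and CTLA4 were all among the dimmest 25% of genes tested, where a difference is hard to see.

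CD68 followed the same order of groups with a smaller range. Its log2 signal was 9.06, 9.10 and 8.91 in uninduced RhoH, 10.32, 9.85 and 10.23 in induced RhoH, and 10.44, 10.39 and 10.46 in GFP cells. Again no array of 1 group reached into another, and the GFP arrays were closest together (SD 0.04, against 0.25 in induced and 0.10 in uninduced RhoH). CD68 was 2.16-fold higher in induced than in uninduced RhoH (1.11, SE 0.12, limma adjusted p = 0.000834) and 2.65-fold lower in uninduced RhoH than in GFP cells (-1.41, SE 0.12, adjusted p = 3.87e-05). Both calls held in all 19 alternatives, and CD68 ranked 76th of 558 and 206th of 2258 called genes by size. Induced RhoH minus GFP was -0.30 (95% interval -0.57 to -0.02), which did not pass (adjusted p = 0.26) except with array weights (-0.46, adjusted p = 0.0235). As with CD86, induced RhoH replicate 1 was the highest and replicate 2 the lowest of the induced arrays.

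**Figure D1:**
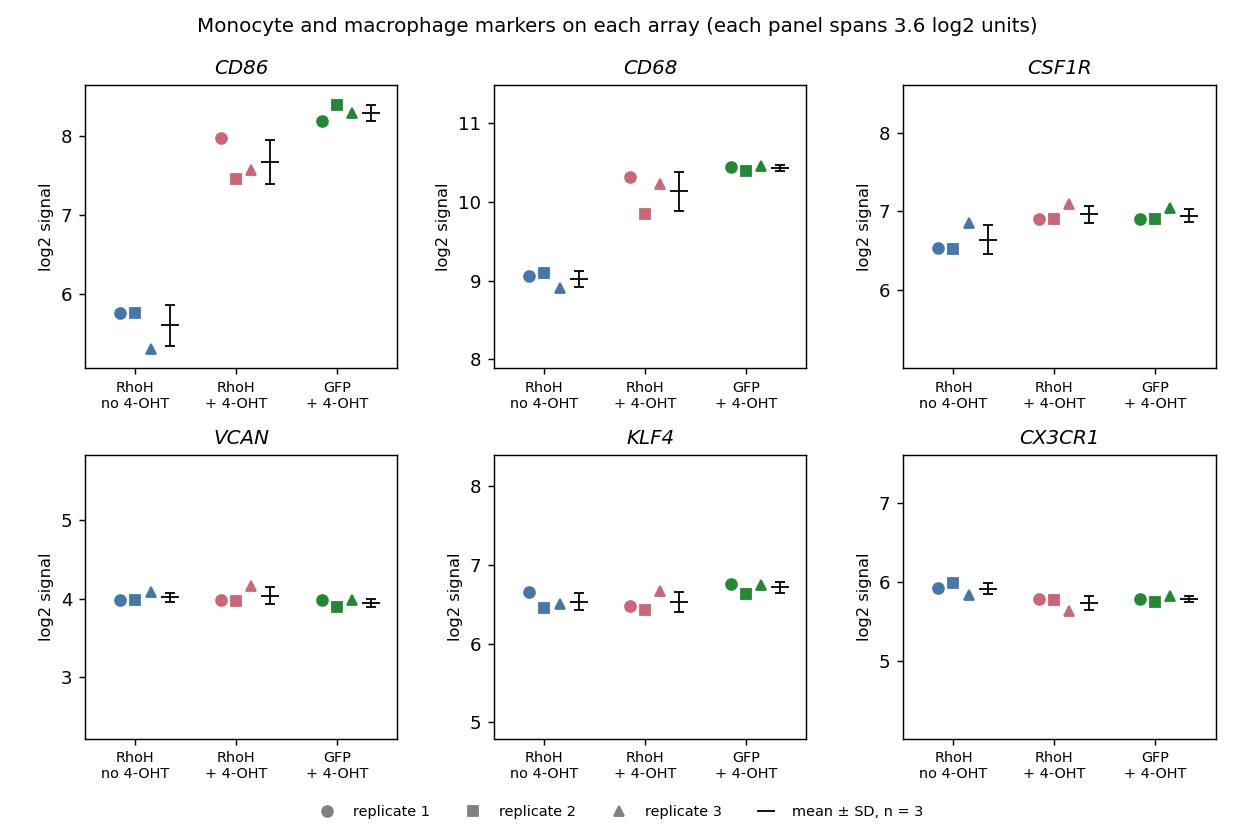
Log2 signal of each of the 6 markers (vertical axis) on every array of the 3 groups (horizontal axis); symbols mark the replicate number and black bars the mean ± SD of 3 arrays. CD86 and CD68 are lowest on the 3 arrays of RhoH cells without 4-OHT and highest on the GFP arrays, while VCAN, KLF4 and CX3CR1 stay within 0.36 log2 units over all 9 arrays.

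Of 24 listed lysosomal membrane and cathepsin genes, 15 were measured, and 13.3% of these were called with induction against 3.78% of all genes. With induction 2 rose and none fell, namely CD63, a tetraspanin of late endosomes and granules (1.52, limma adjusted p = 1.19e-05), and CTSS, the endosomal protease cathepsin S (0.76, adjusted p = 0.0133). The CTSS call was lost when only the 6 arrays compared were fitted (0.0875). The other 13 did not pass, and the median of the 15 was 0.10 against 0.00 over all genes. CD63 was at 6.97 ± 0.08 in uninduced RhoH, 8.49 ± 0.07 in induced RhoH and 9.15 ± 0.03 in GFP cells, the same order of group means as CD68. Against GFP, 2 of the 15 were lower in induced RhoH, CD63 (-0.66, adjusted p = 0.00153) and CTSZ, or cathepsin Z (-0.49, adjusted p = 0.0199). In uninduced RhoH 4 were lower, CD63 (-2.18), CTSS (-1.30), CTSZ (-0.62) and the lysosomal membrane protein LAMP1 (-0.32, adjusted p = 0.0468), and none was higher. These counts are 13.3% and 26.7% of the 15, where 2.75% and 9.27% of all genes were called lower. The CTSZ call against induced RhoH was lost without induced RhoH replicate 1 or 2 or any 1 GFP array (0.0514 to 0.104). That of LAMP1 was lost without any 1 uninduced RhoH array, any 1 GFP array or induced RhoH replicate 2 (0.0645 to 0.164), and with all probe sets tested (0.096).

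CSF1R differed little and was not called in any comparison. Its log2 signal was 6.54, 6.52 and 6.85 in uninduced RhoH, 6.90, 6.90 and 7.09 in induced RhoH, and 6.90, 6.90 and 7.04 in GFP cells. The uninduced arrays lay below all others, but replicate 3 was nearly level with them. The difference was 0.33 with induction (SE 0.11, 95% interval 0.09 to 0.58, limma adjusted p = 0.167), 0.02 between induced RhoH and GFP (adjusted p = 0.959) and -0.31 between uninduced RhoH and GFP (95% interval -0.56 to -0.07, adjusted p = 0.0922). Without uninduced RhoH replicate 3 the last of these passed (-0.42, adjusted p = 0.0294).

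The ligands of CSF1R were not called in any comparison. CSF1 had group means of 5.97 to 6.06 and IL34 of 5.75 to 5.89. Of 17 listed ligands, sister receptors and signalling genes of CSF1R, 10 were measured. Against GFP, 20% of these were called in induced RhoH and 30% in uninduced RhoH (all genes 4.49% and 15.3%). With induction 10% were called against 3.78% of all genes, as 1 rose and none fell. This was KIT, the stem cell factor receptor (0.67, limma adjusted p = 0.0029), which was lower in uninduced RhoH than GFP (-1.20, adjusted p = 1.32e-05) and in induced RhoH than GFP (-0.53, adjusted p = 0.00817, and 0.0506 without GFP replicate 1). KIT was among the dimmest 25% of genes tested, with group means of 4.07 in uninduced RhoH, 4.74 in induced RhoH and 5.28 in GFP cells. FLT3, the receptor kinase of early progenitors, was higher than in GFP cells in induced RhoH (1.00, adjusted p = 0.00606) and in uninduced RhoH (0.99, adjusted p = 0.00177). TYROBP encodes an adaptor that carries signals of several myeloid receptors. It was at 10.34 ± 0.01 in uninduced RhoH, 10.92 ± 0.32 in induced RhoH and 11.07 ± 0.02 in GFP cells, lower in uninduced RhoH than GFP (-0.73, adjusted p = 0.00516). Its difference with induction, 0.58, did not pass (adjusted p = 0.0503), but passed without induced RhoH replicate 2 (0.77, adjusted p = 0.00211) and in 5 other alternatives (adjusted p = 0.0273 to 0.046).

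VCAN, KLF4 and CX3CR1 were not called in any of the 3 comparisons. VCAN read 3.98, 3.99 and 4.08 in uninduced RhoH, 3.98, 3.97 and 4.16 in induced RhoH, and 3.98, 3.89 and 3.98 in GFP cells. The groups overlapped, and the gene was among the dimmest 25% of those tested. Its difference with induction was 0.02 (95% interval -0.17 to 0.21, limma adjusted p = 0.963). KLF4 read 6.65, 6.45 and 6.50 in uninduced RhoH, 6.48, 6.43 and 6.67 in induced RhoH, and 6.76, 6.63 and 6.75 in GFP cells. Both RhoH groups overlapped with GFP and with each other. Induction moved KLF4 by -0.01 (95% interval -0.23 to 0.21), and against GFP it was at -0.19 (adjusted p = 0.391) in induced and -0.18 (adjusted p = 0.289) in uninduced RhoH, the latter passing with array weights (adjusted p = 0.0232).

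CX3CR1 was the one marker whose group mean was highest without 4-OHT. It read 5.93, 5.99 and 5.84 in uninduced RhoH, 5.79, 5.78 and 5.64 in induced RhoH, and 5.79, 5.75 and 5.82 in GFP cells. The uninduced arrays lay just above all others, by less than the range of a single group. The difference was -0.19 with induction (95% interval -0.37 to 0.00, limma adjusted p = 0.339) and 0.14 between uninduced RhoH and GFP (adjusted p = 0.349). CX3CL1, which encodes its ligand fractalkine, had group means of 6.35 to 6.39 and was not called.

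The wider families of these markers were counted in the same way. Of 16 Kruppel-like factor genes other than KLF4, all measured, KLF10, which is induced by transforming growth factor beta, rose with induction (1.10, limma adjusted p = 0.00221) and 15 did not pass, so that 6.25% of the list was called against 3.78% of all genes. Against GFP, KLF3 was lower in induced RhoH (-0.59, adjusted p = 0.0151, lost without GFP replicate 2 or 3 at 0.083 and 0.0736), and KLF6 (-1.32), KLF10 (-1.30) and KLF3 (-0.77) were lower in uninduced RhoH, where 25% of the list and 15.3% of all genes were called. KLF1, the erythroid factor, was higher there (0.53, adjusted p = 0.046), a call lost without any 1 uninduced RhoH or GFP array (0.0972 to 0.147), without both RhoH replicate 1 arrays (0.105) and with all probe sets tested (0.099). Of 22 versican and hyaluronan genes, 14 were measured, and 7.14% of these were called with induction and 21.4% between uninduced RhoH and GFP. CEMIP2, a hyaluronan-degrading enzyme of the cell surface, rose with induction (1.68, adjusted p = 0.000416) and was lower than in GFP cells in induced RhoH (-2.87) and in uninduced RhoH (-4.55, adjusted p = 2.46e-07). The hyaluronan receptor CD44 was lower than in GFP in induced RhoH (-0.65) and uninduced RhoH (-0.60), with no call for induction.

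Of 17 genes for the CX3CR1 ligand and monocyte trafficking receptors, 11 were measured. Of these 18.2% were called with induction and 45.5% between uninduced RhoH and GFP (all genes 3.78% and 15.3%). With induction 2 rose, the chemokine receptor CCR1 (1.62, limma adjusted p = 0.000344) and ADAM17, the protease that sheds fractalkine and other surface proteins (0.49, adjusted p = 0.0419). The ADAM17 call was lost when any 1 array other than uninduced RhoH replicates 1 and 2 was left out (0.0647 to 0.111), with only the 6 arrays compared (0.18) and with all probe sets tested (0.109). None of the 11 was called by limma between induced RhoH and GFP, where 4.49% of all genes were called. Of these 11, 4 had an unadjusted p under 0.05. In uninduced RhoH 4 were lower than in GFP, among them CCR1 (-1.96), ADAM17 (-0.95) and the selectin ligand SELPLG (-0.63), and CXCR4, the receptor that holds myeloid cells in the marrow, was higher (0.70, adjusted p = 0.00628). The Fc receptor list had 1 measured gene, the kinase SYK, the leukocyte immunoglobulin-like receptor list 2, LAIR1 and PILRA, and the MS4A list 2, TMEM176A and TMEM176B. Of these 5, PILRA was lower (-0.80, adjusted p = 0.00175) and LAIR1 higher (0.45, adjusted p = 0.0327) in uninduced RhoH than in GFP, the latter lost without uninduced RhoH replicate 2 or 3 or any 1 GFP array (0.0748 to 0.12) and with all probe sets tested (0.0728).

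Set against the background of each comparison, the 6 markers were called as follows. With induction 2 of 6 were called, both higher, where 3.78% of the 14778 genes were called, 3.02% of all genes as higher and 0.751% as lower. Between induced RhoH and GFP 0 of 6 were called by limma, against 4.49% of all genes (1.74% higher and 2.75% lower), and 2 of 6 (CD86 and CD68) had an unadjusted p under 0.05. Between uninduced RhoH and GFP 2 of 6 were called, both lower, against 15.3% of all genes, 9.27% as lower and 6.01% as higher. The comparisons share groups of arrays, so their calls are not independent of each other. The median fold change of the 6 was 0.18, -0.12 and -0.25 in that order, against 0.00, 0.03 and 0.05 over all genes. In the first comparison, 4 of 6 markers (CD86, CD68, CSF1R and CX3CR1) had no overlap between arrays of the 2 groups, as had 14.5% of all genes. This held for CD86 and CD68 in the second (22.5%), and for the same 4 in the third (37.3%). The two-sided exact permutation p of a single marker reached 0.1 in those cases, the smallest that 3 arrays against 3 allow.

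**Figure D2:**
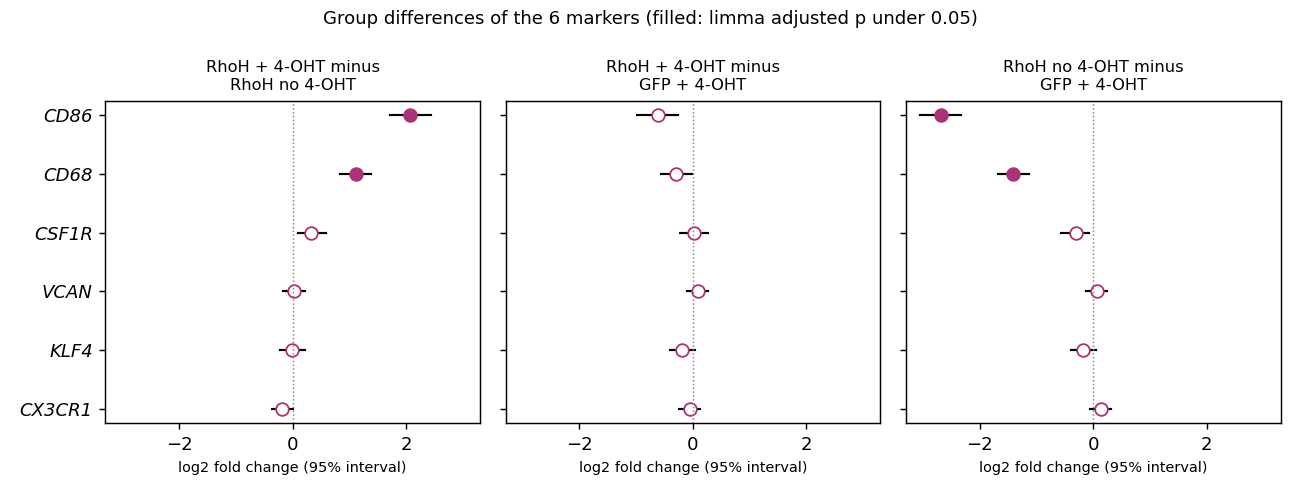
Log2 fold change (horizontal axis) with its 95% interval from limma for the 6 markers (rows) in the 3 comparisons (panels); filled points have an adjusted p under 0.05. CD86 and CD68 are called in the panels that compare uninduced RhoH with a group given 4-OHT (2.07 and 1.11, then -2.69 and -1.41), and no marker is called between induced RhoH and GFP.

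Other monocyte and macrophage genes shared the direction of CD86 and CD68 where they were called, but the whole list was split in direction. Of 54 listed, 35 were measured. With induction 4 rose, 0 fell and 31 did not pass, so that 11.4% were called against 3.78% of all genes. The 4 were TREM1, an amplifier of myeloid inflammation (0.80, limma adjusted p = 0.00831), the inhibitory receptor CD300LF (0.76, adjusted p = 0.00344), CD101 (0.58, adjusted p = 0.0105) and the sialic acid receptor SIGLEC7 (0.49, adjusted p = 0.041). The SIGLEC7 call was lost when uninduced RhoH replicate 2 or 3, induced RhoH replicate 1 or 2 or any 1 GFP array was left out (0.0671 to 0.131), and CD101 and SIGLEC7 missed the threshold without both RhoH replicate 1 arrays (0.0581 and 0.0533), where 3 of the 35 rose. With only the 6 arrays compared, TREM1 (0.0537), CD101 (0.0787) and SIGLEC7 (0.168) all missed it, as did SIGLEC7 with median centring (0.059) and with all probe sets tested (0.106). Over all alternatives 1 to 5 of the 35 rose. Against GFP, 7 were lower in induced RhoH and 12 in uninduced RhoH, and 0 were higher in either. These are 20% and 34.3% of the 35, where 2.75% and 9.27% of all genes were called lower. Under some alternatives up to 1 was called higher than GFP in induced and up to 2 in uninduced RhoH. With induction, 22 of the 35 fold changes were positive and 13 negative. In each RhoH group against GFP, 17 were positive and 18 negative, up to 0.36 in induced and 0.44 in uninduced RhoH. The median of the 35 stayed near that of all genes, at 0.04, -0.03 and -0.06 in the 3 comparisons.

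CD14, the lipopolysaccharide co-receptor that defines classical monocytes, separated the GFP cells from both RhoH groups. Its log2 signal was 5.39 ± 0.26 (SD, n = 3) in uninduced RhoH, 5.51 ± 0.40 in induced RhoH and 6.86 ± 0.31 in GFP cells. It was lower than in GFP cells, with a difference of -1.35 in induced RhoH (SE 0.22, limma adjusted p = 0.00726) and of -1.47 in uninduced RhoH (adjusted p = 0.00126). With induction it was at 0.12 (95% interval -0.37 to 0.61), while CD86 was at 2.07 in the same cells. TREM1 was at 5.32 ± 0.12, 6.11 ± 0.25 and 6.75 ± 0.11 in uninduced RhoH, induced RhoH and GFP cells, the order of CD86 and CD68. Its difference between induced RhoH and GFP (-0.64, adjusted p = 0.0223) was lost in 8 of 19 alternatives. These were leaving out induced RhoH replicate 1 or 2 or any 1 GFP array (0.0514 to 0.104), leaving out both RhoH replicate 1 arrays (0.0585), fitting only the 6 arrays compared (0.0558) and testing all probe sets (0.0548).

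Among transcription factors of monocytes and macrophages, PPARG moved most. Of 23 listed, 12 were measured. Of these 16.7% were called with induction (all genes 3.78%), 16.7% between induced RhoH and GFP (4.49%) and 33.3% between uninduced RhoH and GFP (15.3%). PPARG, a nuclear receptor of lipid metabolism found in alveolar and alternatively activated macrophages, had group means of 5.91 in uninduced RhoH, 7.46 in induced RhoH and 8.86 in GFP cells. It rose with induction (1.54, limma adjusted p = 0.000188) and was lower than in GFP in induced RhoH (-1.41, adjusted p = 0.000309) and uninduced RhoH (-2.95, adjusted p = 7.73e-07), calls that held in all 19 alternatives. TFEC, a basic helix-loop-helix factor related to MITF and found in macrophages, also rose (0.71, adjusted p = 0.0036) and was lower in uninduced RhoH than GFP (-0.96, adjusted p = 0.000125). The other 10 did not pass with induction. ZEB2, a zinc finger repressor of the myeloid lineage, was higher than in GFP in both RhoH groups (0.47 and 0.39), lost for induced RhoH without GFP replicate 1 or 3 (0.0671 and 0.0902) and for uninduced RhoH without its replicate 2 or GFP replicate 3 (0.0529 and 0.0717). Of 14 measured polarisation genes out of 22, the monocyte chemoattractant CCL2 rose with induction (4.02, adjusted p = 0.000984) and 13 did not pass. The shares called were 7.14% with induction, 7.14% in induced RhoH against GFP and 21.4% in uninduced RhoH against GFP. CCL2 was at 4.39 ± 0.06 in uninduced RhoH and 10.26 ± 0.13 in GFP cells, and spread widely in induced RhoH (8.40 ± 1.21). CCL22, a chemokine of alternatively activated macrophages, was lower than in GFP in induced RhoH (-0.51) and in uninduced RhoH (-0.75), the first lost without induced RhoH replicate 2 or any 1 GFP array (0.052 to 0.0999).

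The genes whose pattern over the 9 arrays was most like CD86 and CD68 were GLIPR1, LAT and PLXNC1 for the former and LYN, BIN2 and CD53 for the latter. Likeness was measured as the mean absolute difference between the log2 values of 2 genes, each centred on its own mean. From CD86 the distance was 0.144 for GLIPR1, 0.172 for the signalling adaptor LAT and 0.218 for PLXNC1, a semaphorin receptor. GLIPR1 was at 7.84, 9.86 and 10.49 in uninduced RhoH, induced RhoH and GFP cells, and LAT at 6.78, 9.21 and 9.43. From CD68 it was 0.0819 for the Src family kinase LYN, 0.0861 for the adaptor BIN2 and 0.0997 for the leukocyte tetraspanin CD53. Their fold changes with induction were 1.03, 1.16 and 1.29, against 1.11 for CD68. These 6 genes were chosen for their likeness, so their values are a description.

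**Figure D3:**
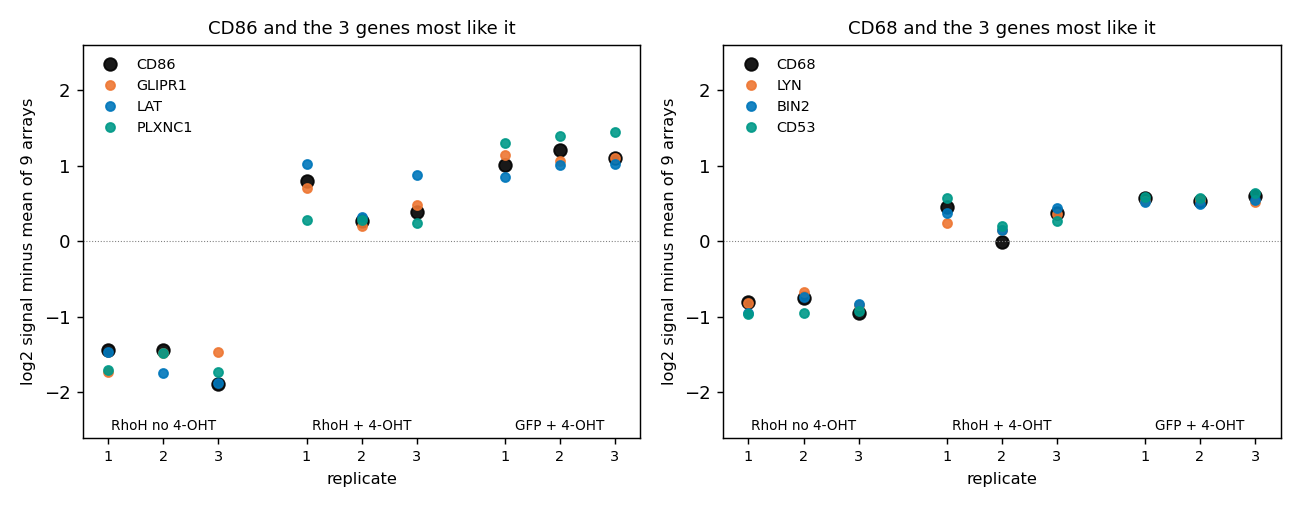
Log2 signal minus each gene's mean over the 9 arrays (vertical axis) on every array (horizontal axis, replicates 1 to 3 of each group) for CD86 (left) and CD68 (right), each with the 3 genes most like it. All 8 genes are below their mean on the 3 arrays of RhoH cells without 4-OHT, and all points on the GFP arrays are above it.

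Markers of other cell types were read on the same arrays. The promyelocyte and neutrophil granule genes that define HL-60 cells were present, with MPO, which encodes myeloperoxidase, at 13.39 in uninduced RhoH and 12.20 in GFP cells. Of 13 measured of 20 listed, 6 were called higher than in GFP in induced RhoH and 6 in uninduced RhoH, and none was called lower. Each count is 46.2% of the 13, where 1.74% and 6.01% of all genes were called higher. Fold changes were negative for 3 and 5 of the 13, down to -0.7 and -0.74. Under some alternatives up to 2 were called lower in uninduced RhoH. CEACAM8, an adhesion molecule of granulocytes, was higher by 2.49 in induced and 2.5 in uninduced RhoH. Mean log2 signal of the 13 was 8.63 to 8.74 on the uninduced, 8.56 to 8.74 on the induced and 7.93 to 8 on the GFP arrays. With induction, 1 of the 13 fell, CTSG, or cathepsin G (-0.83, limma adjusted p = 0.00703, 0.0541 without both RhoH replicate 1 arrays and 0.0518 with only the 6 arrays compared). The summed linear signal of the 13 was 26797 to 27261 on the uninduced, 20888 to 25205 on the induced and 9706 to 10064 on the GFP arrays, lower on every induced array than on any uninduced one. A linear sum is carried mostly by the brightest genes, and the mean log2 signal overlapped between uninduced and induced arrays. Of 7 measured eosinophil genes of 13 listed, 3 (42.9%) were higher than in GFP in each RhoH group, with mean signals of the list of 7.03 to 7.31, 7.01 to 7.33 and 6.34 to 6.4. With induction, where 3.78% of all genes were called, limma called 0 of the 7, and 2 had an unadjusted p under 0.05. Fold changes of the 7 with induction were positive for 4 and negative for 3, from -0.75 to 0.51. Under some alternatives up to 1 was called higher and up to 1 lower. The part of granule and eosinophil genes in the differences of CD86 and CD68 was not tested.

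Mast cell and dendritic lists held called genes with induction, and lymphoid and erythroid lists held none, where 3.78% of all genes were called. The shares called were 37.5% of the mast cell and basophil list and 8.33% of the dendritic list. At that background, lists as short as the lymphoid and erythroid ones can hold no called gene. Of 8 measured mast cell and basophil genes 3 rose with induction, GATA2 (1.04), CPA3 (0.79) and the dim KIT. The mean of the 8 was 6.07 to 6.32 on the induced arrays against 5.79 to 5.86 on the uninduced and 5.78 to 5.84 on the GFP arrays. Fold changes with induction were negative for 2 of the 8, down to -0.44, and under some alternatives up to 1 was called lower. CPA3 missed the threshold without both RhoH replicate 1 arrays (limma adjusted p = 0.0533). Of 12 dendritic cell genes SIGLEC6, a sialic acid receptor, rose (2.62) and 11 did not pass. Of 11 B, T and NK cell genes and 6 erythroid and megakaryocyte genes none was called by limma with induction, and 0 had an unadjusted p under 0.05. The part of mast cell and dendritic genes in the result for CD86 and CD68 was not tested.

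**Figure D4:**
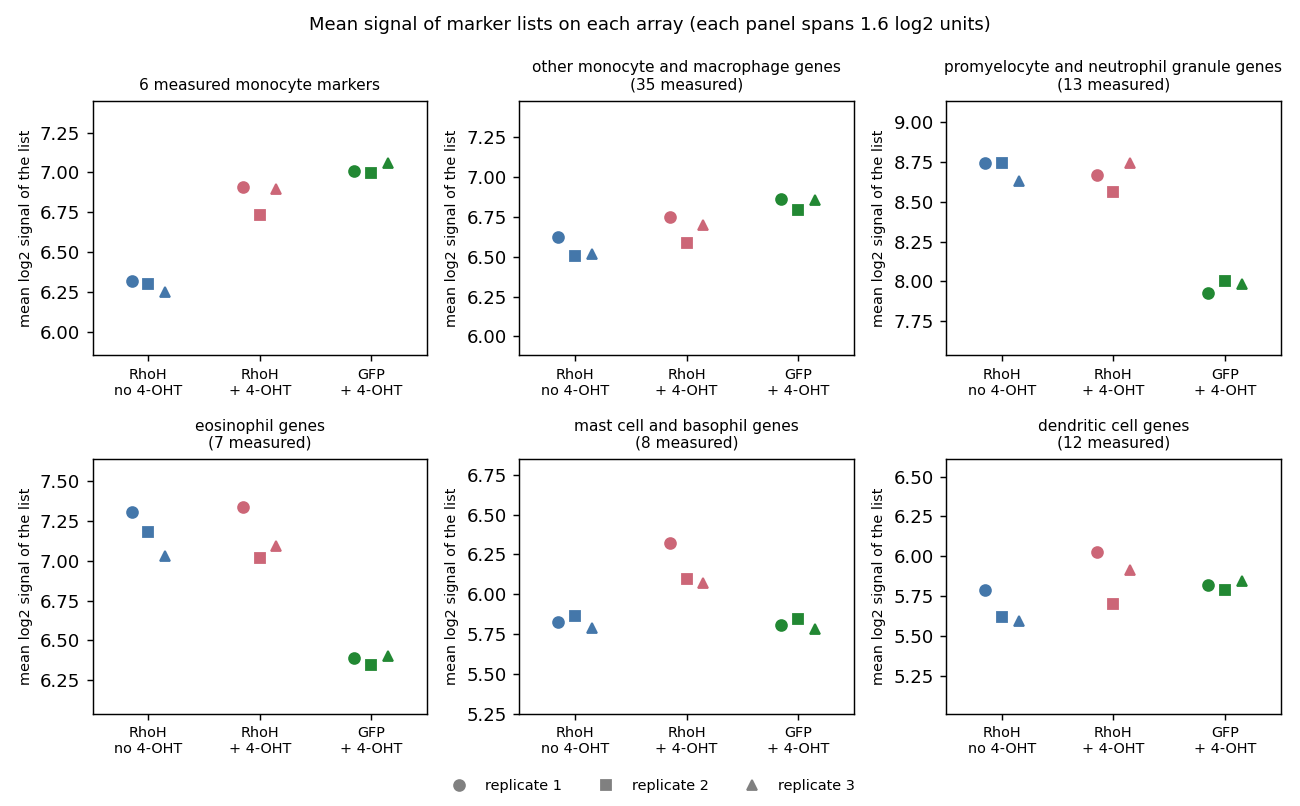
Mean log2 signal (vertical axis) of the 6 measured monocyte markers and of 5 other marker lists on each array of the 3 groups (horizontal axis); symbols mark the replicate number. The 6 markers average 6.25 to 6.32 on the uninduced, 6.73 to 6.91 on the induced and 6.99 to 7.06 on the GFP arrays, while granule and eosinophil genes are lowest on the GFP arrays. Of the 6, CD86 (2.07) and CD68 (1.11) are called with induction, and the 4 not called lie between -0.19 and 0.33.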

How the data were processed

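Log2 signals of 43550 probe sets on 9 Affymetrix whole-transcript arrays were deposited by the authors. Per the submitters' processing notes, the tools were Affymetrix Power Tools, RMA and limma. Their versions and the genome build are not given in the sources used here. By design, RMA corrects background, quantile-normalizes arrays and summarises probes on the log2 scale, which compresses differences of dim genes. No counts exist, and the number of arrays limits the precision. Platform annotation named 15659 probe sets. The one with the highest mean per gene was used, leaving 14778 genes. Groups and replicates came from sample titles, and no pair of arrays was identical as a whole. Single genes could hold the same value on several arrays, as CSF1R did at 6.904 on replicates 1 and 2 of induced RhoH and of GFP. The fit was limma 3.58.1 under R 4.3.3 (3 group means, 6 residual and 3.86 prior degrees of freedom, Benjamini-Hochberg over 14778 genes), and tested on simulated data. The replicates may share cultures, in which case p-values measure only the spread between these samples. No replicate block was used, since the labels do not say that a number marks a shared culture or day. Deviations from the group means correlated at -0.03 to 0.54 between same-numbered arrays and at -0.5 to 0.4 between others. Members, lists and alternatives were chosen with earlier results of these data known. Named besides the members are RHOH, ligands and partners, at most 4 called, non-overlapping genes with the largest fold change per list and comparison, and the 3 genes most like each called member. MPO was named after its values were seen.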

Additional observations from a re-analysis of the deposited data

How the results depend on the processing

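Each comparison was repeated under 19 alternatives. CD86 and CD68 were called with induction and lower in uninduced RhoH than GFP in all of them. Of 339 values of the 6 markers under alternatives, 317 kept direction and side of the threshold, 0 lost a call, 9 gained one and 13 changed sign, all of the latter short of the threshold. Between induced RhoH and GFP, 0 markers were called, but 2 with array weights, and 1 with the dimmest 25% of genes left out or both RhoH replicate 1 arrays left out; leaving out 1 array gave 0 to 1.

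Replicate numbers went with shared deviations in part. Uninduced and induced RhoH arrays correlated at 0.54 for replicates 1, 0.37 for replicates 2 and 0.07 for replicates 3. Replicates 1 and 2 crossed between these groups were at -0.5 and -0.44, but uninduced replicate 3 and induced replicate 2 at 0.4. With the replicate as a block, markers called were 2, 0 and 3 in the 3 comparisons (CSF1R added in uninduced RhoH against GFP, -0.31, adjusted p = 0.0317), and genes called 684, 820 and 2558.

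Of all genes, 558 were called with induction, against 190 with only the 6 arrays compared, 953 with quantile normalization, 950 with array weights and 304 to 666 without 1 array. Between induced RhoH and GFP 664 were called, against 1176 with array weights and 279 to 861 without 1 array. Between uninduced RhoH and GFP 2258 were called, against 4326 with array weights and 1450 to 2670 without 1 array. The cause was not tested.

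These signs turned, each short of the threshold. With induction, median centring gave VCAN 0.00, CSF1 -0.02 and CX3CL1 -0.02, quantile normalization CSF1 -0.04 and CX3CL1 -0.04, array weights VCAN -0.05, and leaving out both RhoH replicate 1 arrays KLF4 0.08 and CD80 -0.01. Leaving out 1 array gave VCAN -0.04 to 0.05, KLF4 -0.08 to 0.05, CD80 -0.03 to 0.07, CSF1 -0.17 to 0.20, IL34 -0.02 to 0.21, CX3CL1 -0.12 to 0.11 and CD14 -0.01 to 0.35. For induced RhoH minus GFP, CSF1R was 0.00 with median centring and -0.03 with array weights, and CD28 0.01 with array weights. Leaving out 1 array gave CSF1R -0.05 to 0.06, CD28 -0.06 to 0.07, CX3CL1 -0.02 to 0.10 and TYROBP -0.25 to 0.04. For uninduced RhoH minus GFP, quantile normalization gave VCAN 0.00 and CTLA4 -0.05, array weights CTLA4 -0.04, CSF1 -0.02 and CX3CL1 0.00, and leaving out both RhoH replicate 1 arrays CTLA4 -0.07, CSF1 -0.11, IL34 -0.03 and CX3CL1 -0.07. Leaving out 1 array gave CTLA4 -0.07 to 0.06, CSF1 -0.11 to 0.26, IL34 -0.03 to 0.13 and CX3CL1 -0.07 to 0.16. The cause was not tested.

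With 3 arrays a group, small differences could not be told from the spread between arrays, and array signal gives no count of molecules.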
